A study of Mus musculus with 26 samples.

Results

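Astrocyte genes are 34 named genes whose mRNA or protein is used to recognise astrocytes or marks their work, taken as listed by symbol out of the 55487 genes of the count tables. They were grouped as 10 transporters, channels and junction genes, 4 metabolic genes, 3 metallothioneins, 5 transcription factors, 2 filament and calcium-binding proteins, 3 receptors and 7 secreted or lipid-binding proteins. All 34 were found and all 34 passed the filter on low counts that left 18050 genes for testing. The data were poly-A selected RNA sequencing of frontal cortex from 7 HET mice, which carried a frameshift in Adnp on 1 of their alleles, and 7 WT littermates, all adolescent. Adnp encodes a zinc-finger protein of chromatin complexes. Open chromatin was given as 1 merged list of peaks for HET and 1 for WT, on the same tissue. No Cre driver, transgene or drug treatment was named for either genotype. The molecule field of the labels reads total RNA for HET 1 to 4 and polyA RNA for HET 5 to 7 and all 7 WT libraries, while the protocol is the same text for all of them.

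Astrocytes clear glutamate, GABA, glycine and potassium from around synapses, turn glutamate into glutamine for neurons, move water at the blood vessels and share small molecules through gap junctions. They also bind zinc and copper with metallothioneins and supply the brain with apolipoproteins and angiotensinogen. Several of these genes are used as pan-astrocyte markers in cortex, while others differ in level between astrocytes of different brain regions. In bulk tissue, fewer astrocytes and less RNA per astrocyte cannot be told apart.

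Each HET library held between 33280785 and 47079906 counts and each WT library between 32814841 and 48291175, and Mt2 was the astrocyte gene with the fewest counts. The labelled tissue could be checked only in part by its neuron markers. All 12 excitatory neuron markers, among them Slc17a7 and Tbr1, were expressed, but several were low in HET 4. Their summed level was 1485 to 6807 CPM (counts scaled to library size with TMM factors) in HET and 3141 to 8780 CPM in WT. Slc17a6 is among both these markers and the thalamic markers below. Markers of thalamic and striatal neurons were present as well and differed widely between libraries. The 8 thalamic markers summed to 215.1 to 1956 CPM in HET and 146.7 to 674 CPM in WT, with Gbx2 at 0 in at least 1 library, and the 8 striatal markers to 152 to 2395 CPM in HET and 192 to 1538 CPM in WT. HET 4 was the highest library in thalamic and the lowest in excitatory markers, and HET 6 was the lowest HET library in thalamic markers. In HET 4, Neurod6 was at 1.132, Neurod2 at 1.749 and Tbr1 at 6.714 CPM. WT 4, the lowest WT library in each, had 17.42, 40.09 and 45.92 CPM, in this order. Of the 1485 CPM summed in HET 4, Camk2a made up 670.5 and Slc17a6 453.2 CPM. Slc17a6 and Rorb (39.38 CPM) were higher in HET 4 than in every WT library. The excitatory markers thus cannot vouch for the labelled tissue in HET 4.

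The metallothionein genes lie close together on the plus strand of chromosome 8 in the order Mt3, Mt2, Mt1. Their stretches before the start are shown because these 3 neighbours differed in listed peaks and in counted level. The low count of Mt2 is limited by its overlap with another gene, where reads were left out. The log2 fold changes were -0.23 (SE 0.07) in Mt3, 0.31 (SE 0.29) in Mt2 and -0.02 (SE 0.12) in Mt1, with no call in edgeR. Agt and Hes5 are shown because Agt had the largest fold change among the astrocyte genes and Hes5 had a peak in HET over the stretch itself; both were chosen after their values were seen. The sequences are the 250 bases before the RefSeq start on build GRCm38.p6, given 5′ to 3′ on the gene's own strand. They are chr8:94178839-94179088 for Mt1, chr8:94172368-94172617 for Mt2 and chr8:94152357-94152606 for Mt3, all on the plus strand, chr8:124569707-124569956 for Agt on the minus strand and chr4:154960673-154960922 for Hes5 on the plus strand. Capitals mark matches on either strand to the core of the metal response element (TGCACNC or TGCGCNC) in the metallothionein genes, to a STAT motif (TTCNNNGAA) in Agt and to the RBPJ motif of Notch signalling (TGGGAA) in Hes5.
Mt1: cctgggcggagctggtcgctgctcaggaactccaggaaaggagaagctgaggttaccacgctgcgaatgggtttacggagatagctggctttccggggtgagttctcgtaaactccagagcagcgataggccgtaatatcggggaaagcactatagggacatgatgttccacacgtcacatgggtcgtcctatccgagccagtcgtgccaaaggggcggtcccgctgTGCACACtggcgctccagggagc
Mt2: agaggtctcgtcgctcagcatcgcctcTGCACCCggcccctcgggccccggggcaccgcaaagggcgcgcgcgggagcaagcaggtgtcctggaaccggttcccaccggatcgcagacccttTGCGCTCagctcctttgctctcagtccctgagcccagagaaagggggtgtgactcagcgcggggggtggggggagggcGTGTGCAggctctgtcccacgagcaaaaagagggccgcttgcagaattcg
Mt3: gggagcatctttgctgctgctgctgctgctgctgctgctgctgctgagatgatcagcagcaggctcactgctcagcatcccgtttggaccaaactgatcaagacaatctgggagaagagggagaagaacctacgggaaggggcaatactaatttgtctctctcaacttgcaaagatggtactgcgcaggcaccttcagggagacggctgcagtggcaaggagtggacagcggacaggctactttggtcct
Agt: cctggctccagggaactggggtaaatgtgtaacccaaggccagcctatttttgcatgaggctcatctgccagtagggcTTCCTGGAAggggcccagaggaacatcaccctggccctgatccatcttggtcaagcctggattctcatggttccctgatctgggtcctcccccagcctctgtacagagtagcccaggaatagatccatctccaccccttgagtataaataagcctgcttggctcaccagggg
Hes5: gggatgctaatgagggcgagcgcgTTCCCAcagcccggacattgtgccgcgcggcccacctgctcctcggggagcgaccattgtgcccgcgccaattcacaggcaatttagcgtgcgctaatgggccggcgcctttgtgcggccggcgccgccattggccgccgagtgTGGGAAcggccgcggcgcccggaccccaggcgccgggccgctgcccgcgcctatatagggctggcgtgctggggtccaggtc

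Mt2 held 3 metal response element cores in this stretch, Mt1 held 1 and Mt3 held 0, and the 50 bases after the start held 1 more in Mt2, 2 in Mt1 and 1 in Mt3. These counts depend on where the annotated start lies and bases further into the genes were not searched, so they do not rank these genes by such cores. At least 1 such core was found in 21.4% of the 32841 promoters in the RefSeq table and 3 or more in 1.26%. The Hes5 stretch held 2 RBPJ motifs, at -226 and -82 from the start, and 2.76% of all promoters held 2 or more. A STAT motif as in Agt was in 7.02% of promoters. None of the capitals overlapped another of the motifs searched for, and a match is a description of letters, not a bound site. Of the astrocyte genes, 29 were in the promoter table, and Atp1b2, Sox9, Chrdl1, Aqp4 and Clu were not. Among those 29, the RBPJ motif was found in 12 (41.4%, against 21.6% of all promoters), the metal response core in 7 (24.1%), the STAT motif in 4 (13.8%), and the SOX motif (ATTGTT, 9.43% of all promoters) in 0. An astrocyte gene was counted if any of its promoters held a match, while the shares of all are per promoter. The shares are thus not counted alike, and a gene with several starts has more room for a match.

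The level of the astrocyte genes spanned a wide range. On the length-corrected scale of TPM (counts per exon length, scaled to the library), Apoe, the main apolipoprotein made by astrocytes, was the most abundant in HET at 2603 ± 233 TPM in HET and 2336 ± 363 TPM in WT (± SD over 7 libraries each). Cst3, an inhibitor of cysteine proteases, stood at 2321 ± 287 TPM in HET and 2548 ± 361 TPM in WT, and Glul, which encodes glutamine synthetase, at 1388 ± 101.7 TPM in HET and 1457 ± 96.3 TPM in WT. The SDs of each of these genes were wider than or close to the gap between its genotypes. At the low end were Chrdl1, at 5.34 ± 2.92 TPM in HET and 9.74 ± 4.07 TPM in WT, and Mt2, at 5.47 ± 1.64 TPM in HET and 4.24 ± 1.62 TPM in WT. The steadiest astrocyte gene in HET was Clu, with an SD over libraries of 0.06 on the log2 CPM scale, and in WT Slc1a3, with 0.10. The most variable was Chrdl1 in HET, with an SD of 0.94, and Agt in WT, with 1.74. Gfap had an SD of 0.29 in HET and 0.45 in WT on this scale, Aqp4 0.48 in HET and 0.26 in WT, and S100b 0.32 in HET and 0.25 in WT.

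The comparison of HET with WT asked whether the Adnp frameshift was accompanied by other levels of astrocyte mRNA. No astrocyte gene passed edgeR's quasi-likelihood test at an adjusted p under 0.05: 0 of 34 were called higher and 0 of 34 lower, where 0.587% of all tested genes were called higher and 0.382% lower (0.97% together). At an unadjusted p under 0.05 there were 6 higher (Atp1b2, Slc4a4, Slc6a11, Slc6a9, Fgfr3 and Agt) and 5 lower (Slc1a2, Slc1a3, Glul, Mt3 and Chrdl1), or 32.35% of the astrocyte genes, against 22.2% of all tested genes (11.8% higher and 10.4% lower). DESeq2 called Slc4a4 higher and Mt3 lower, with 4.25% of all genes called higher and 4.07% lower (8.33% together). Limma-voom with sample weights called Atp1b2, Slc4a4, Slc6a9 and Fgfr3 higher and Mt3 lower, with 5.16% and 5.29% of all genes called in those directions. In 24 of 34 genes the log2 fold change (HET over WT) was above 0, against 53.3% of all genes, and the median was 0.15 over the astrocyte genes and 0.02 over all genes tested. There were 0 astrocyte genes with all HET libraries above all WT libraries and 0 with all below, against 0.432% and 0.283% of all genes.

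**Figure D1:**
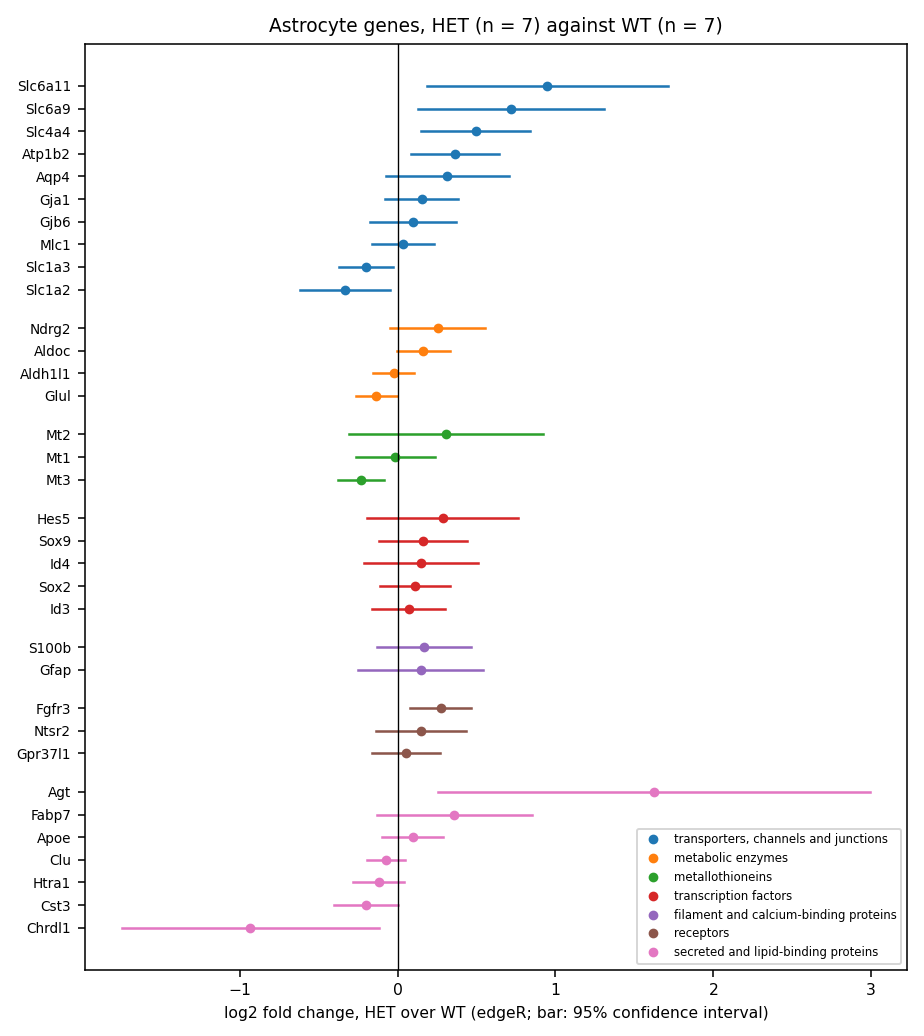
Log2 fold changes of the 34 astrocyte genes, HET over WT (7 libraries each, edgeR), by role on the vertical axis, with bars for the 95% confidence interval on the horizontal log2 axis. The interval lies wholly above 0 for 6 genes and wholly below 0 for 5, and Agt and Chrdl1 lie at the ends, at 1.63 and -0.93.

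Among the 10 transporters, channels and junction genes, 8 had a positive and 2 a negative log2 fold change, with a median of 0.23, and 4 higher and 2 lower reached an unadjusted p under 0.05. The glutamate transporters were on the low side. Slc1a2, the main glutamate transporter of the forebrain, had 1199, 1704 and 2032 CPM as lowest, median and highest HET library, against 1534, 2037 and 2507 CPM in WT. HET 4 and HET 1 lay below every WT library, WT 1, 2, 3 and 5 lay above every HET library, and the other libraries overlapped. Its log2 fold change was -0.33 (SE 0.13, unadjusted p 0.0241, adjusted p 0.162 in edgeR). Slc1a3, the second astrocytic glutamate transporter, had 457, 519 and 651 CPM in HET as lowest, median and highest, against 542, 611 and 641 CPM in WT. HET 3 was above all WT libraries and 5 of 7 HET libraries were below all of them, so the groups overlapped through HET 3 and HET 5. Its log2 fold change was -0.20 (SE 0.08, adjusted p 0.159 in edgeR).

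The transporters for GABA, glycine and bicarbonate and the sodium pump subunit were on the high side. Slc6a11, which takes up GABA into astrocytes, had 179, 482 and 906 CPM as lowest, median and highest HET library, against 129.8, 254 and 393 CPM in WT. HET 1, 2, 4 and 7 were above every WT library and HET 3, 5 and 6 lay within the WT range. This gave a log2 fold change of 0.95 (SE 0.36, adjusted p 0.147 in edgeR). Slc6a9, a glycine transporter, had 19.99, 57.6 and 87.9 CPM in HET, in the same order, against 22.8, 30.5 and 45.0 CPM in WT. The same 4 HET libraries were above every WT library, and HET 6 was below all of them. Its log2 fold change was 0.72 (SE 0.27, adjusted p 0.151 in edgeR), and 30.2% of its exon bases also lie in exons of other genes, where unstranded counting leaves reads out.

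Slc4a4, the sodium bicarbonate cotransporter, had 139.7, 252 and 309 CPM as lowest, median and highest HET library, against 111, 182 and 221 CPM in WT. All HET libraries but HET 6 were above every WT library. HET over WT, the log2 fold change was 0.49 (SE 0.16, unadjusted p 0.00811, adjusted p 0.108 in edgeR), and the adjusted p was 0.0305 without HET 6 and 0.0447 without WT 4. Atp1b2, the glial beta subunit of the sodium pump and the most abundant of the 10 genes in HET per length, had 532, 805 and 1013 CPM in HET, in the same order, against 489, 593 and 671 CPM in WT. 5 of 7 HET libraries were above every WT library, and HET 5 and HET 6 were inside the WT range. The log2 fold change was 0.36 (SE 0.13, adjusted p 0.131 in edgeR), and without HET 6 the adjusted p was 0.0471 for Atp1b2 and 0.0435 for Slc6a9.

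The other 4 genes of this group, the water channel Aqp4, the connexins Gja1 and Gjb6 of the astrocyte gap junction and the membrane protein Mlc1, had log2 fold changes between 0.03 and 0.32. Aqp4 had the highest of them at 0.32 (SE 0.18, adjusted p 0.321 in edgeR), with a mean of 162 ± 46.4 CPM in HET and 129.9 ± 23.5 CPM in WT (7 libraries each, ± SD). Its 95% confidence interval, from -0.07 to 0.71, included 0. Gja1 averaged 207 ± 34.2 CPM in HET and 187 ± 23.3 CPM in WT, a difference smaller than either SD, and its log2 fold change was 0.15 (SE 0.11, adjusted p 0.428).

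**Figure D2:**
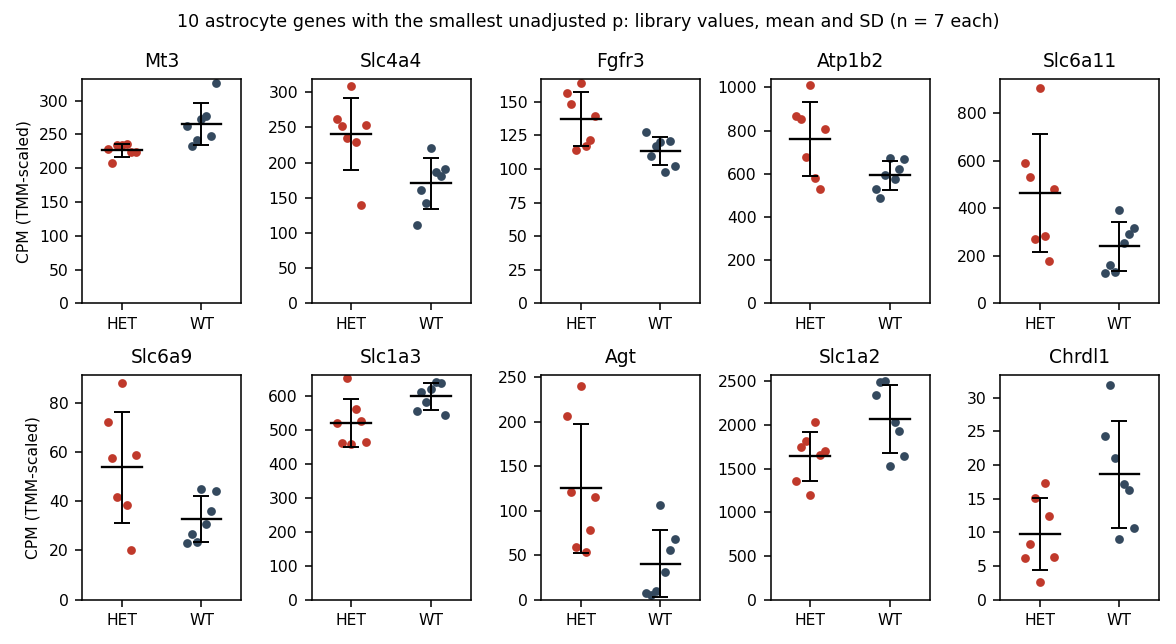
Level of the 10 astrocyte genes with the smallest unadjusted p, in TMM-scaled CPM on a linear vertical axis, 1 point per library with the mean and SD of 7 HET libraries on the left and 7 WT libraries on the right. In every panel the groups overlap; in Mt3, 4 of the 7 HET libraries lie below the lowest WT library, at 233 CPM.

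Of the 4 metabolic genes, 2 had positive and 2 negative fold changes, and the median was 0.07. Glul, the enzyme that makes glutamine from glutamate, had 1275, 1439 and 1524 CPM as lowest, median and highest HET library, against 1387, 1560 and 1718 CPM in WT. 3 of 7 HET libraries were below all WT libraries and no HET library was above the WT median. This gave a log2 fold change of -0.14 (SE 0.06, unadjusted p 0.0411, adjusted p 0.206 in edgeR). Aldh1l1, a folate-metabolising dehydrogenase and a pan-astrocyte marker, averaged 59.9 ± 4.62 CPM in HET and 61.0 ± 4.76 CPM in WT (7 libraries each, ± SD). With a log2 fold change of -0.03 and a 95% confidence interval from -0.16 to 0.11, this marker had one of the narrower intervals of the 34 genes. Aldoc, the aldolase isozyme of astrocytes, had a log2 fold change of 0.16 (SE 0.08, adjusted p 0.242), and Ndrg2, an astrocyte protein of the hydrolase fold, one of 0.26 (SE 0.14, adjusted p 0.298).

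The 3 metallothioneins, small cysteine-rich proteins that bind zinc and copper, had log2 fold changes from -0.23 to 0.31. Differences between the 3 were not tested. Mt3, the brain-enriched form, had the smallest p of all astrocyte genes. Its lowest, median and highest HET libraries had 208, 228 and 236 CPM, against 233, 263 and 326 CPM in WT. No HET library was above the WT median of 263 CPM, and the groups overlapped only where HET 3, 4 and 5 lay above WT 2. HET over WT, the log2 fold change was -0.23 (SE 0.07, unadjusted p 0.00434, adjusted p 0.0878 in edgeR), while the adjusted p was 0.0223 in DESeq2 and 0.0390 in limma-voom.

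Mt1, the most abundant metallothionein per length, had 279.5, 337 and 386 CPM as lowest, median and highest HET library, against 234, 332 and 426 CPM in WT. The HET libraries lay inside the range of the WT libraries, and the log2 fold change was -0.02 (SE 0.12). Mt2 had 0.364, 0.891 and 1.17 CPM in HET, in the same order, against 0.332, 0.697 and 1.04 CPM in WT. Its level is uncertain, since 73.5% of its exon bases also lie in exons of 1 predicted gene on the other strand, where the counting, which ignored strand, left reads out. Mt1 and Mt2 also resemble each other in sequence, and reads that map to both were left out.

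All 5 transcription factors had positive fold changes, from 0.07 to 0.29 on the log2 scale, with 0 at an unadjusted p under 0.05. Id4, an inhibitor of basic helix-loop-helix factors and the most abundant of the group per length, had 87.9, 115 and 139 CPM as lowest, median and highest HET library, against 64.3, 101.7 and 148 CPM in WT. The HET range lay inside the WT range, and the log2 fold change was 0.15 (SE 0.17, adjusted p 0.645 in edgeR). Sox9, a factor that drives and maintains the astrocyte fate, averaged 32.2 ± 4.52 CPM in HET and 28.8 ± 6.04 CPM in WT, and Sox2, a factor of neural stem cells and astrocytes, 46.9 ± 6.06 CPM in HET and 43.5 ± 7.10 CPM in WT (7 libraries each, ± SD). Hes5, a repressor switched on by Notch, had the largest fold change of the group at 0.29 (SE 0.23, adjusted p 0.478), with 5.64 ± 1.904 CPM in HET against 4.62 ± 1.303 CPM in WT. A single antisense gene shares 31.8% of the Hes5 exon bases. Id3, a BMP-responsive relative of Id4, had a log2 fold change of 0.07 (SE 0.11).

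Gfap, the intermediate filament gene induced in reactive astrocytes, averaged 237 ± 49.2 CPM in HET and 214 ± 64.7 CPM in WT (7 libraries each, ± SD). The difference was smaller than either SD, and the 95% confidence interval of its log2 fold change ran from -0.25 to 0.54. S100b, a calcium-binding protein, had 79.7, 133 and 149 CPM as lowest, median and highest HET library, against 90.4, 103 and 149 CPM in WT. HET 6 was below all WT libraries and the rest overlapped with them, and the log2 fold change was 0.17 (SE 0.14, adjusted p 0.506 in edgeR).

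Among the 3 receptors, Fgfr3, a fibroblast growth factor receptor of astrocytes, stood out by its p. It had 114, 139 and 164 CPM as lowest, median and highest HET library, against 98.0, 117 and 127 CPM in WT. HET 1, 2, 4 and 7 were above every WT library, and HET 3, 5 and 6 lay within the WT range. The log2 fold change was 0.27 (SE 0.09, unadjusted p 0.00831, adjusted p 0.108 in edgeR), and 13.9% of its exon bases lie in exons of an antisense gene. Gpr37l1, an orphan receptor and the most abundant of the 3 per length, had 152, 227 and 254 CPM in HET, as lowest, median and highest, against 182, 207 and 245 CPM in WT. HET 6 was below and HET 4 above all WT libraries, and its log2 fold change was 0.05 (SE 0.10). Ntsr2, the neurotensin receptor of astrocytes, had a log2 fold change of 0.15 (SE 0.13, adjusted p 0.544).

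Of the 7 secreted and lipid-binding proteins, 3 had positive and 4 negative fold changes, and the group held both ends of the whole range. Agt encodes angiotensinogen, the precursor of the angiotensins. Its lowest, median and highest HET libraries had 53.1, 116 and 240.5 CPM, against 4.74, 31.2 and 106 CPM in WT. WT 1, 2, 3 and 5 lay below every HET library, HET 1, 2, 4 and 7 lay above every WT library, and the rest overlapped. This gave a log2 fold change of 1.63 (SE 0.64, a 3.09-fold ratio, unadjusted p 0.0230, adjusted p 0.159 in edgeR), with a 95% confidence interval from 0.26 to 2.99.

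Chrdl1, a secreted antagonist of bone morphogenetic proteins, had 2.57, 8.25 and 17.3 CPM as lowest, median and highest HET library, against 8.99, 17.1 and 31.9 CPM in WT. HET 1, 2, 4 and 7 were below all WT libraries, and WT 1, 2 and 3 were above all HET libraries. HET over WT, the log2 fold change was -0.93 (SE 0.38, adjusted p 0.172 in edgeR). Cst3 had 614, 823 and 870.2 CPM in HET, as lowest, median and highest, against 751, 879 and 1052 CPM in WT. HET 6, and by a small margin HET 2, were below every WT library, the other HET libraries overlapped the WT range, and the log2 fold change was -0.20 (SE 0.09, adjusted p 0.231). Apoe had 1343, 1477 and 1681 CPM in HET, in the same order, against 1203, 1372 and 1719 CPM in WT. Its HET range lay inside the WT range, and its log2 fold change was 0.09 (SE 0.09, adjusted p 0.574). Clu, an apolipoprotein, Htra1, a secreted serine protease, and Fabp7, a fatty acid carrier of glial cells, had log2 fold changes of -0.07, -0.12 and 0.36, each with an adjusted p above 0.3.

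The same 4 HET libraries, HET 1, 2, 4 and 7, were above or below every WT library in Agt, Slc6a11, Slc6a9, Fgfr3 and Chrdl1, and WT 1, 2 and 3 were the 3 WT libraries with the lowest Agt, Slc6a11, Slc6a9 and Slc4a4 and the highest Slc1a2 and Chrdl1. The mean log2 CPM of the 8 thalamic markers was 5.21 ± 1.29 in HET and 3.98 ± 1.16 in WT (7 libraries each, ± SD), where HET 1, 2, 4 and 7 were the 4 highest HET libraries, from 4.88 to 7.38, and WT 1, 2 and 3 the lowest WT libraries, from 2.65 to 3.08. HET 3, at 4.86, was close to HET 2, at 4.88. All 8 thalamic markers had a positive log2 fold change and 4 of 8 had an unadjusted p under 0.05 (50%, against 22.2% of all tested genes). Among them edgeR and limma-voom called 0 and DESeq2 called 1, Tcf7l2 (log2 fold change 2.30, adjusted p 0.0411 in DESeq2 and 0.126 in edgeR). The median log2 fold change of the 12 excitatory markers was -0.835, with 10 negative. At an unadjusted p under 0.05, 6 were lower and 1 higher (58.33%, against 22.2% of all tested genes). Of the 12, 0 were called in edgeR, 1 lower in DESeq2 and 3 lower in limma-voom. The 1 higher was Slc17a6 (log2 fold change 1.51), which stood in both lists and is counted among the thalamic markers as well.

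Within each genotype the level of several astrocyte genes followed the thalamic marker mean. The mean log2 CPM of the 8 oligodendrocyte markers ranked the HET libraries in the same order, from 9.47 in HET 4 to 7.35 in HET 6. In WT the highest libraries, WT 7, 4, 6 and 5, also came in the same order by both means. The relations below can thus not be called particular to thalamic markers, and relations to oligodendrocyte markers were not tested. Relations were computed for the 10 astrocyte genes with the smallest p in HET and in WT apart, 20 in all, with two-sided exact permutation tests over the pairings of 7 libraries and Benjamini-Hochberg adjustment over the 20. They were not computed for the other astrocyte genes or for all tested genes. How common such relations are among all genes is thus not known, and they cannot be read as a trait of astrocyte genes. For Slc6a9, Pearson's r was 0.94 in HET (exact permutation p 0.00258, adjusted 0.0175) and 0.96 in WT (exact permutation p 0.000992, adjusted 0.0175), with Spearman's rho of 1 and 0.96, and r was 0.85 and 0.95 without the 2 libraries farthest from the median. Slc6a11 gave r of 0.92 in HET and 0.93 in WT, Slc4a4 0.91 in HET and 0.83 in WT, and Atp1b2 0.89 in HET and 0.82 in WT. In the opposite direction, Chrdl1 gave -0.85 in HET and -0.86 in WT. For these 5 genes the adjusted exact permutation p of Pearson's r was under 0.05 in both genotypes, from 0.0175 to 0.0496, and without the 2 farthest libraries the size of r was still 0.71 or more. Agt gave 0.76 in HET (adjusted exact permutation p 0.0598) and 0.91 in WT (0.0273), and Slc1a2 gave -0.71 in HET (adjusted exact permutation p 0.0933) and -0.92 in WT (0.0204). By Spearman's rho the adjusted exact permutation p was 0.0686 for Atp1b2 in WT, and 0.0397 for Agt in HET and in WT. Which genes passed in both genotypes thus depended on the measure. Mt3, Fgfr3 and Slc1a3 did not pass in either genotype by either measure. For Mt3, r was 0.24 in HET and 0.74 in WT (adjusted exact permutation p 0.590 and 0.0598), with Spearman's rho of -0.14 and 0.61, and r was -0.10 and 0.70 without the 2 farthest libraries.

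**Figure D3:**
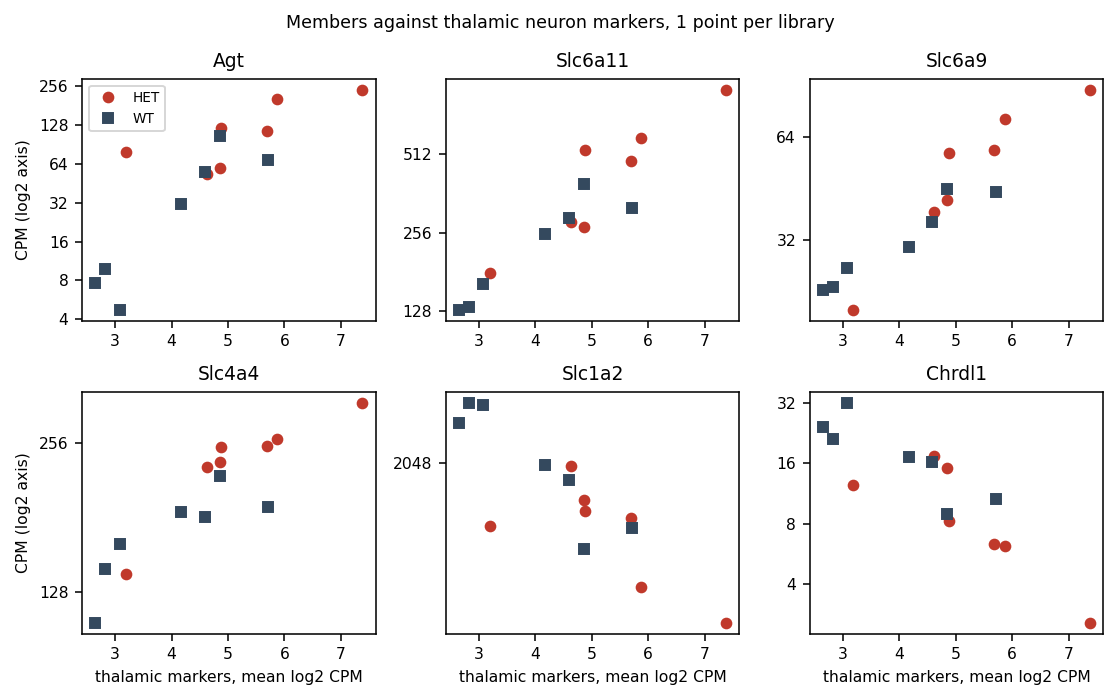
Level of 6 astrocyte genes in CPM (vertical log2 axis) against the mean log2 CPM of the 8 thalamic neuron markers (horizontal axis), 1 point per library, HET as circles and WT as squares. Agt, Slc6a11, Slc6a9 and Slc4a4 climb with the thalamic markers within HET and within WT, and Slc1a2 and Chrdl1 decline.

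With the marker means of excitatory, thalamic and striatal neurons added as covariates, the edgeR fit again called 0 of 34 astrocyte genes, against 0.0942% of all genes higher and 0.0166% lower. The log2 fold change of Slc6a11 then stood at 0.16, of Slc6a9 at 0.10, of Atp1b2 at 0.10, of Slc4a4 at 0.19, of Slc1a2 at -0.05 and of Chrdl1 at -0.24, each closer to 0 than without the covariates. The covariates themselves differed by genotype, with a mean log2 CPM of 6.22 in HET and 7.13 in WT for excitatory and 5.21 and 3.98 for thalamic markers. This fit thus cannot fully tell tissue content from genotype. Agt stood at 1.06 (SE 0.51, unadjusted p 0.0640, adjusted p 0.353). Mt3 stood at -0.27 (SE 0.07, unadjusted p 0.00107, adjusted p 0.109), Cst3 at -0.32 (SE 0.08, unadjusted p 0.000969, adjusted p 0.106) and Slc1a3 at -0.18 (SE 0.06, unadjusted p 0.0105, adjusted p 0.190). The median over the astrocyte genes was -0.04 with the covariates and 0.01 over all genes. At an unadjusted p under 0.05 there were 5 astrocyte genes, Mt3, Cst3, Slc1a3 and Mlc1 lower and Fgfr3 higher, against 6.75% of all genes lower and 8.76% higher. 12 genes with small positive fold changes, from Gfap and Aqp4 to Gpr37l1 and Mlc1, changed sign.

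Other subsets of libraries moved the same genes. In the libraries labelled polyA RNA alone, HET 5 to 7 against WT 1 to 7, edgeR called 0 of 34 astrocyte genes, against 0.0211% of all genes, and Slc1a3 and Mt3 were lower at an unadjusted p under 0.05, with 9.69% of all genes at that level. The log2 fold change of Agt was 1.02, of Slc6a11 0.39, of Slc4a4 0.28, of Chrdl1 -0.63 and of Slc1a2 -0.21 in that fit, each nearer to 0 than with all libraries, and that of Mt3 was -0.23 as with all libraries. The median over the astrocyte genes was -0.02 there. With HET 4 and HET 1 left out, the libraries lowest in excitatory markers, the fit called 0 of 34, against 0.0704% of all genes, and the values were 1.08 for Agt, 0.54 for Slc6a11, 0.38 for Slc4a4, -0.64 for Chrdl1, -0.21 for Slc1a2 and -0.24 for Mt3. Without these 2 libraries Slc4a4 was higher and Mt3 and Cst3 were lower at an unadjusted p under 0.05 in edgeR, with 15.3% of all genes at that level. The total RNA label is found in HET alone, so with all libraries the label and the genotype cannot be fully told apart.

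**Figure D4:**
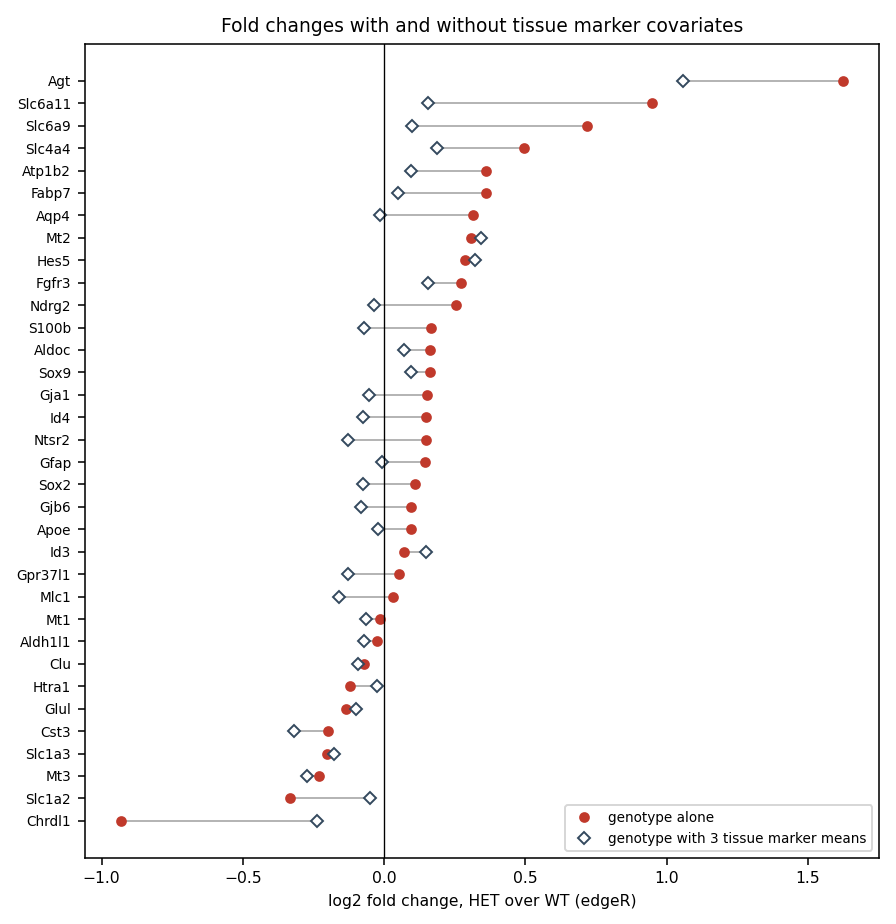
Log2 fold change, HET over WT, of each astrocyte gene in the fit with genotype alone (filled circles) and with the 3 tissue marker means added (open diamonds), on a horizontal log2 axis. Slc6a11 moves to 0.16 with the covariates, against 0.95 without, while Mt3 stands at -0.27 with and -0.23 without them.

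Other astrocyte genes and pathways were described from lists of known genes. Of 52 further astrocyte-enriched genes, 1 fell and 0 rose in edgeR, against 0.382% and 0.587% of all tested genes. At an unadjusted p under 0.05, 11 were higher and 9 lower (38.46%, against 22.2% of all tested genes). The median log2 fold change was 0.11. Ppp1r3g, a subunit that directs a phosphatase to glycogen, fell to a mean of 6.17 ± 0.96 CPM in HET, against 11.4 ± 2.76 CPM in WT (log2 fold change -0.89, SE 0.16, adjusted p 0.0332 in edgeR). 6 of 7 HET libraries were below all WT libraries, of which WT 4 was the lowest at 6.87 CPM. The call was lost with the tissue marker covariates (log2 fold change -0.57, adjusted p 0.0789), in the libraries labelled polyA RNA alone (-0.75, 0.412) and when both libraries with the lowest excitatory marker levels were left out (-0.76, 0.109). It was also lost when any of HET 1, 2, 4 or 7 or WT 1, 2, 3, 5, 6 or 7 was left out (0.0524 to 0.0818), and with any 1 library left out the log2 fold change stayed between -0.98 and -0.80. The genes with the next smallest p were Kcnj16, an inward rectifier potassium channel (log2 fold change 0.53, adjusted p 0.0624), Dio2, the deiodinase that activates thyroid hormone (-0.93, adjusted p 0.0798), and Pygm, a glycogen phosphorylase (0.50, adjusted p 0.0966), none of which edgeR called, while DESeq2 (adjusted p 0.00741, 0.00769 and 0.0318, in this order) and limma-voom (0.0232, 0.0282 and 0.0452) called each of them. Over the whole list 4 rose and 4 fell in DESeq2, against 4.25% and 4.07% of all tested genes. In limma-voom 4 rose and 6 fell, against 5.16% and 5.29%.

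In the Notch pathway, which switches on Hes5, 1 of 14 genes rose and 0 fell, against 0.587% and 0.382% of all tested genes. The median log2 fold change was 0.17. At an unadjusted p under 0.05 there were 5 higher and 1 lower (42.86%, against 22.2% of all tested genes). Notch3, a receptor that in brain is best known from mural cells of vessels, rose to 28.1 ± 2.84 CPM in HET, against 19.5 ± 3.11 CPM in WT (log2 fold change 0.52, SE 0.10, adjusted p 0.0352 in edgeR). All 7 HET libraries, from 24.3 to 33.4 CPM, were above all WT libraries, from 15.5 to 23.3 CPM. In the same 3 alternatives the Notch3 call was lost as well, with log2 fold changes of 0.37 (adjusted p 0.109) with covariates, 0.40 (0.412) in the polyA libraries and 0.46 (0.130) without both low-excitatory libraries. Leaving out any of HET 1, 2, 4 or 7 or WT 1, 3, 5, 6 or 7 also ended it (0.0577 to 0.0850), and with any 1 library left out the log2 fold change stayed between 0.475 and 0.572. Of the 14 Notch genes DESeq2 called 2 higher and limma-voom 3 higher, against 4.25% and 5.16% of all tested genes. The 7 mural cell markers summed to 271 to 287 CPM in HET and 230.4 to 311 CPM in WT, with 0 of 7 at an unadjusted p under 0.05, and their part in the Notch3 difference was not tested. On the log2 scale the ligand Jag1 differed by 0.46 (SE 0.14, adjusted p 0.0969 in edgeR), and the Notch regulator Dtx1 by 0.18 (SE 0.06, adjusted p 0.115).

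Genes induced in reactive astrocytes gave 0 calls in edgeR: 0 of 12 pan-reactive genes, 0 of 11 tested genes of the set called A1 after inflammation and 0 of 10 tested genes of the set called A2 after ischaemia. At an unadjusted p under 0.05 there were 1, 3 and 1 of them (8.33%, 27.27% and 10%), against 22.2% of all tested genes. DESeq2 called 1, 3 and 1, and limma-voom 1, 1 and 2. Over all tested genes the share called was 0.97% in edgeR, 8.33% in DESeq2 and 10.4% in limma-voom. At an unadjusted p under 0.05 the BMP and metal lists below held 13.33% and 23.53%. Cd44, a hyaluronan receptor, was the pan-reactive gene with the smallest p (0.68 on the log2 scale, SE 0.19, adjusted p 0.0802 in edgeR), and Ptgs2, a prostaglandin synthase also made by active neurons, that of the A2 set (-1.26, adjusted p 0.105). In the A1 set H2-T23 and Psmb8, genes of antigen presentation, had log2 fold changes of -0.48 (adjusted p 0.0766 in edgeR, 0.0196 in limma-voom and 0.0170 in DESeq2) and -0.42 (0.113 in edgeR, 0.0568 in limma-voom and 0.0491 in DESeq2). Amigo2, an adhesion protein also made by neurons, had 0.92 (adjusted p 0.145 in edgeR, 0.0476 in DESeq2 and 0.102 in limma-voom), and 8 of the 11 tested A1 genes had positive fold changes. Of the 15 BMP and Id pathway genes 0 were called, with 2 higher at an unadjusted p under 0.05, Smad9 (0.47, adjusted p 0.0684) and Smad5 (0.30, adjusted p 0.153), while DESeq2 called 1 and limma-voom 3. Of 17 genes of the metal, oxidative and glucocorticoid response, which share inducers with the metallothioneins, 0 were called, 1 was higher and 3 were lower at an unadjusted p under 0.05, and DESeq2 called 3 and limma-voom 5. Cdkn1a, a cell cycle inhibitor, had the smallest p (-0.65, adjusted p 0.0539), followed by Gclm, a subunit of the glutathione-making enzyme (0.16, adjusted p 0.0701), and Hmox1, heme oxygenase (-0.36, adjusted p 0.0749).

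Besides the excitatory and thalamic markers described above, levels of markers of other cells stood beside these genes as follows. The 8 microglia markers summed to 262 to 377 CPM in HET and 339 to 392.2 CPM in WT. All 8 had negative fold changes, with 4 of 8 at an unadjusted p under 0.05 (50%, against 22.2% of all tested genes). The 8 oligodendrocyte markers summed to 2400 to 10551.4 CPM in HET and 4630 to 8014 CPM in WT, and the 7 endothelial markers to 229 to 281 CPM in HET and 233 to 273 CPM in WT. None of these markers was at 0 in any library, and the part of these cells in the astrocyte gene differences was not tested.

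Open chromatin at the gene starts was read from the merged lists, which held 30862 peaks for HET and 19272 for WT. The lists carry no height or score, and with 1 list per genotype there is no replicate check. A peak within 1000 bases of the start was listed for 23 of 34 astrocyte genes in HET (67.6%, against 63.6% of all tested genes) and for 17 of 34 in WT (50%, against 57.2%). Both lists had a peak at 16 genes (47.1%, against 55.6%). A peak in the HET list alone was found at 7 genes (20.6%, against 8.08%): the glutamate transporter Slc1a3, Mlc1, Mt2, Id3, Hes5, Apoe and Fabp7. When the HET list was reduced to its widest peaks in the number of the WT list, 2 genes (5.88%, against 4.68% of all genes) had a peak in HET alone and 3 genes (8.82%, against 4.19%) in WT alone. With the whole lists, a peak in the WT list alone was found at Sox2 (2.94%, against 1.62%).

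At Hes5 the HET peak ran from -187 to -6 bases relative to the start, which takes in the RBPJ motif at -82 of the sequence above and not the one at -226. At Mt3 the HET peak spanned -150 to 503 and the WT peak 92 to 463, so the printed stretch of Mt3 was reached by the HET peak and not by the WT peak. At Mt1 both lists had a peak over the start, chr8:94178908-94179509 in HET and chr8:94178888-94179311 in WT, and both cover the single metal response core of its printed stretch. At Mt2 the HET peak, chr8:94172630-94173114, began just after the printed stretch. Agt had a peak over its start in both lists, from -45 to 126 in HET and -134 to 206 in WT, neither of which reaches the STAT motif at -172. Slc6a9 and Slc1a2 had the widest of these peaks, with 1561 and 1336 bases in HET and 1342 and 1582 bases in WT. The Slc6a9 peaks ran from 681 to 2241 in HET and from 879 to 2220 in WT, so they lay only partly within 1000 bases of the start. With RefSeq starts instead, Slc1a2 had a peak in neither list. The 10 genes without a peak in either list included Aqp4, Gja1, Aldh1l1 and Gfap, which were all expressed, and Slc4a4, Slc6a11, Fgfr3 and Chrdl1 of the genes with small p.

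**Figure D5:**
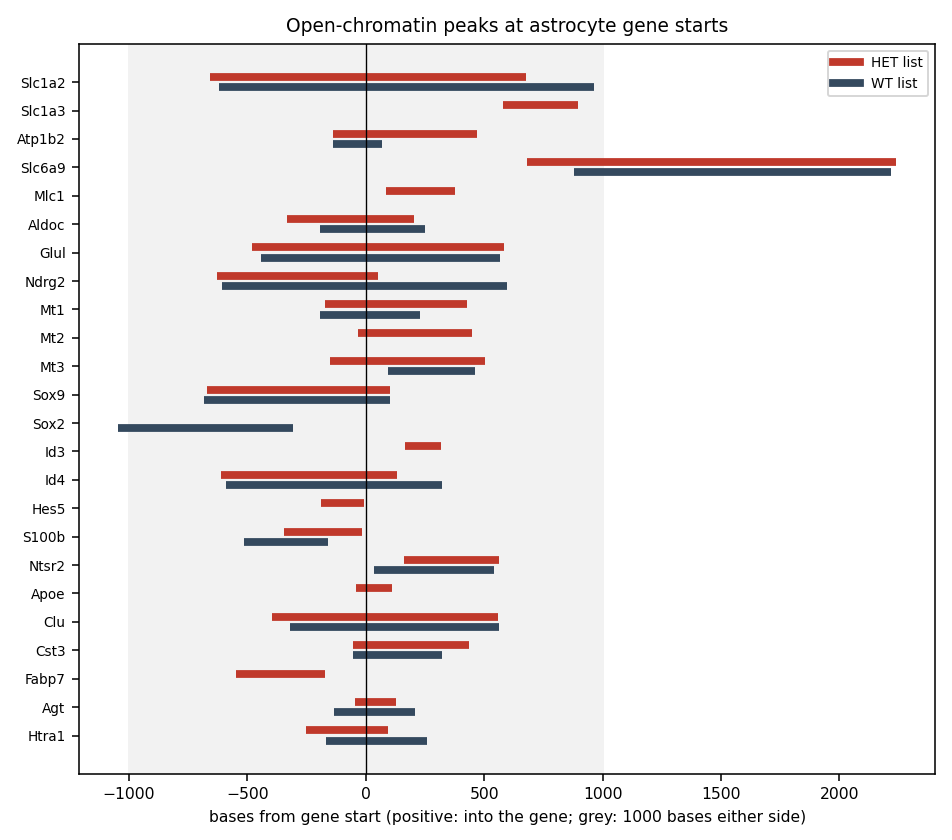
Extent of the peaks within 1000 bases (grey) of the start of each astrocyte gene that had one, in bases from the start with positive values into the gene, for the HET list (upper bar) and the WT list (lower bar). 7 genes have a HET bar alone and Sox2 has a WT bar alone; the lists carry no peak height.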

How the data were processed

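RNA-seq covered 7 HET and 7 WT libraries of mouse frontal cortex, grouped by the genotype label. The authors' deposited values are raw counts per gene from featureCounts 2.0.1 on Ensembl GRCm38 release 102, with strand ignored, per the file headers, so reads on overlapping genes were left out. STAR and Trimmomatic were named per the submitters' processing notes, without settings. Library totals were 32814841 to 48291175 counts. All 91 library pairs differed by at least 9.38 chi-square per degree of freedom, beyond sampling noise. Counts were filtered with filterByExpr, given TMM factors and tested in edgeR 4.0.16 (robust quasi-likelihood, two-sided, genotype alone), with Benjamini-Hochberg adjustment over 18050 genes, a threshold of 0.05 and a common biological coefficient of variation of 0.248; the code was tested on simulated data. CPM values are TMM-scaled, TPM values use exon length, and SDs are over 7 libraries. The labels number 7 samples per genotype, taken here as 7 mice, so p-values reflect the spread between libraries. That spread holds differences between animals, in tissue content and in preparation together.

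The 2 deposited peak lists on mm10 (the GRCm38 assembly) give chromosome, start and end. The sources used here do not say which libraries were merged, with what caller settings or at what depth. A promoter is 1000 bases either side of the outermost Ensembl exon end, and 1 shared base counts as overlap.

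The members and lists were chosen with earlier results of these data known. Library values are given for the 10 members with the smallest p, the highest TPM of each role group and members with a library apart, and for other lists the members with the smallest p. Promoters are those of the metallothioneins, Agt and Hes5; proteins were not used here. Alternatives were DESeq2 1.42.0, its size factors, limma-voom 3.58.1, library size alone, no filter, at least 1 CPM in 7 libraries, a block for the replicate number, 3 tissue marker means as covariates, libraries labelled polyA RNA alone, each library left out, and other promoter windows. Chosen after seeing the data were the fit without the 2 libraries lowest in excitatory markers and RefSeq starts. Hi-C, PAT and Control samples were not analysed here.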

Additional observations from a re-analysis of the deposited data

Results flagged for a closer look

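In 4 of 68 groups of 7 libraries, 1 library lay apart from the others by a gap that was large for the range of the group on the log2 scale (Dixon's criterion); chance gives about 1 group in 20. Slc4a4 in HET 6 had 139.7 CPM, where the other HET libraries had 229.8 to 309 CPM, a gap of 0.627 of the range. Mt2 in HET 5 had 0.364 CPM, against 0.720 to 1.17 CPM in the other HET libraries, a gap of 0.574, at a level set by few counts. Mt3 in HET 2 had 208 CPM, against 223.5 to 236 CPM in the other HET libraries, and Cst3 in HET 6 had 614 CPM, against 749 to 870.2 CPM, each with a gap of 0.571.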

How the results depend on the processing

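All 34 astrocyte genes kept an adjusted p above 0.05 in edgeR with other size factors, library size alone, all genes kept, genes of at least 1 CPM in 7 libraries kept, the replicate block, the tissue covariates, the polyA-labelled libraries or the fit that leaves out both libraries lowest in excitatory markers. The number of genes called among all tested was 175 in edgeR, 1503 in DESeq2, 1886 in limma-voom, 106 without the filter, 20 with the tissue covariates, 13 when both libraries lowest in excitatory markers were left out and 4 in the polyA-labelled libraries, and 11 to 1672 with 1 library left out, most without WT 4 and, at 1110, without HET 6. Astrocyte genes called higher were 1 in DESeq2, 4 in limma-voom and 0 to 3 with 1 library left out, and those called lower 1 in DESeq2 and 1 in limma-voom. The 3 were called without HET 6, where 1110 of all genes were called, and 1 was called without WT 4, where 1672 were. The median over astrocyte genes was -0.041 with the tissue covariates. With the replicate block 10 genes were called, Ppp1r3g (adjusted p 0.0610) and Notch3 (0.0662) not among them; same-numbered libraries correlated from -0.284 to 0.334, and 1 of 7 HET libraries correlated best with its own number, so the numbers were not taken to pair them. Signs turned with the tissue covariates in Aqp4 (-0.013), Gja1 (-0.053), Gjb6 (-0.081), Mlc1 (-0.159), Ndrg2 (-0.034), Sox2 (-0.074), Id4 (-0.075), Gfap (-0.008), S100b (-0.070), Ntsr2 (-0.126), Gpr37l1 (-0.128) and Apoe (-0.021), in the polyA-labelled libraries in Gja1 (-0.026), Gjb6 (-0.106), Mlc1 (-0.127), Ndrg2 (-0.017), Sox2 (-0.050), S100b (-0.028), Ntsr2 (-0.088) and Gpr37l1 (-0.117), and with both libraries lowest in excitatory markers left out in Gjb6 (-0.072), Mlc1 (-0.066) and Gpr37l1 (-0.027). They also turned in Mt1 with the block (0.003) or library size alone (0.036), in Aldh1l1 with library size alone (0.034), where the median of all genes was 0.074, and with 1 library left out in Gjb6 (-0.002 to 0.158), Mlc1 (-0.008 to 0.082) and Mt1 (-0.088 to 0.049); the cause was not tested. Genes with a peak in HET alone were 2 with the widest HET peaks in equal number. The merged peak lists allow no replicate error, and the counts of Mt2 are limited by its overlap with another gene.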
